A study of Rattus norvegicus with 12 samples.

Results

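The genes described here are 10 genes of the unfolded protein response and the amino acid stress response: Atf3, Atf4, Ddit3, Xbp1, Trib3, Asns, Chac1, Sesn2, Herpud1 and Sdf2l1. They were found by the gene name given for each probe in the 12 scanner files, which picked 11 probes, a pair for Asns and 1 for each other gene, out of 27196 probes and 16382 genes kept. Each array read total RNA from the skull roof (calvaria) of 10-week-old rats, collected 24 h after an operation, with 4 arrays per group. Bur-group rats had an 8 by 3 mm defect drilled at a feed near 0.75 mm/s. Rats of the laser group had an equal defect ablated with an Er:YAG laser, whose light is absorbed by water in tissue, moved at some 2 mm/s in 3 passes of 127 mJ pulses at 20 Hz. Control rats had the periosteum stripped with no cut into bone, so the controls too had been operated on. Strain, sex and the number of animals behind a sample are not given in the labels used here, and p-values therefore measure only the spread between these samples.

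Cells answer misfolded protein in the endoplasmic reticulum (ER) and shortage of amino acids through partly shared machinery. The sensors PERK, IRE1 and ATF6 detect misfolded protein in the ER, and the kinase GCN2 detects shortage of amino acids. The kinases HRI and PKR answer other stresses. PERK, GCN2, HRI and PKR all phosphorylate the translation factor eIF2alpha. This lowers general protein synthesis while it raises translation of ATF4, a transcription factor that turns on genes of amino acid supply and stress. IRE1 splices the mRNA of Xbp1 into the form that encodes an active factor, and XBP1 and ATF6 turn on chaperones and degradation genes of the ER. In bone, osteoblasts secrete large amounts of collagen and rely on this machinery. A gene array reads mRNA level, so splicing of Xbp1 and translation of Atf4 were not measured.

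Promoter sequences show where the letters bound by these factors lie in the genes that respond to them. RefSeq promoter windows of the GRCr8 assembly, from 250 bases before to 50 bases after the start, were matched for 9 of the 10 genes; Atf3 was not matched. Both strands were searched for the C/EBP-ATF response element TGATGNAA, the ER stress response element (CCAAT and CCACG with 9 bases of any kind between them), the XBP1 and ATF6 core TGACGTGG and, added after the other searches, the ER stress response element II (ATTGG and CCACG with 1 base between them). No match overlapped another here. Windows of 4 genes held a match, and their 250 bases before the start are printed 5′ to 3′ on the strand of the gene, with the matched bases in capitals. The windows of Atf4, Ddit3, Asns, Sesn2 and Sdf2l1 held none of these letters.
Xbp1: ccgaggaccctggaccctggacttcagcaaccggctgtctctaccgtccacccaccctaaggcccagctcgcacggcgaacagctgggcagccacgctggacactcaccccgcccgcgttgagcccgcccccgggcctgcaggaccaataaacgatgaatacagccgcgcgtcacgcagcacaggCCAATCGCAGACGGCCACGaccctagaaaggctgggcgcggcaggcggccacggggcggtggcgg
Herpud1: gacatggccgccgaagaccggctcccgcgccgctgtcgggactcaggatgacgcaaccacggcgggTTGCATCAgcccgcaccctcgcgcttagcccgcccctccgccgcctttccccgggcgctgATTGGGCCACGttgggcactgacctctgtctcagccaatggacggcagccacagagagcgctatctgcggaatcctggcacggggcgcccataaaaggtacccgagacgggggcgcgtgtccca
Chac1: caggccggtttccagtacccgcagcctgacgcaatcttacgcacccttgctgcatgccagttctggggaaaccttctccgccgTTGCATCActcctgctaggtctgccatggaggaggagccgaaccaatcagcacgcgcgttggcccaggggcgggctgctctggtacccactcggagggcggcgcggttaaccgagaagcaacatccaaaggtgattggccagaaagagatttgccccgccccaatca
Trib3: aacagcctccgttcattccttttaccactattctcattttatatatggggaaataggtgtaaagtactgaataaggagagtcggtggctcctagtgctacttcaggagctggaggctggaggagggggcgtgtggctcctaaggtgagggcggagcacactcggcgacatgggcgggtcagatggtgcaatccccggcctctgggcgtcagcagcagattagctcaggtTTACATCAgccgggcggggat

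The Xbp1 sequence (chr14:84604373-84604622, plus strand) held the ER stress response element from -65 to -47 relative to the start, which 0.0657% of 33469 windows also held. The Herpud1 sequence (chr19:10614708-10614957, minus strand) held the C/EBP-ATF element on the opposite strand from -184 to -177 and the ER stress response element II from -124 to -114. The C/EBP-ATF element was in 3.98% of all windows and the ER stress response element II in 0.0508%. In Chac1 (chr3:126795881-126796130, plus strand) the C/EBP-ATF element lay on the opposite strand from -167 to -160, and in Trib3 (chr3:161275534-161275783, minus strand) on the opposite strand from -21 to -14. The XBP1 and ATF6 core was in 0.595% of windows and in none of the 9 matched here. A match is a description of letters and does not show that a factor was bound.

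Arrays differed before normalization. The median processed signal was 16.5 to 43.2 on control arrays, 18.6 to 28.3 on bur arrays and 55.6 to 81.9 on laser arrays, and 57.2 to 64.4%, 57.0 to 59.9% and 67.5 to 72.0% of spots were well above background. Control and bur arrays lay on slide 1 and laser arrays on slide 2, so slide and laser treatment cannot be told apart. Markers of the labelled tissue were present, with 8 of 8 osteoblast and 5 of 6 osteocyte markers kept and Fgf23 not kept. Neural markers stood apart on control 1 and control 4, at a summed level of 13.59 and 12.75 log2 against 10.05 to 11.55 on the other 10 arrays. For the genes described here, results are given without these arrays where that changed a call. For the other genes of the pathways they are given mainly as counts of called genes. In whole bone, fewer cells of a type and less RNA per cell cannot be told apart.

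A gene was called changed at a limma adjusted p under 0.05 over all 16382 genes. By this rule 6 of the 10 genes were called in at least 1 of the 3 comparisons, against 50.1% of all genes, and each comparison held calls in both directions. Bur-drilled bone had 2 of 10 called against control, Atf3 higher and Asns lower, where 23.4% of all genes were called (13.7% higher, 9.74% lower). Laser-ablated bone had 3 of 10 called against control, Xbp1 higher and Asns and Herpud1 lower, where 34.4% of all genes were called (18.3% higher, 16.2% lower). Between laser and bur 3 of 10 were called, Chac1 higher and Atf3 and Ddit3 lower with laser, where 25.8% of all genes were called (11.6% higher, 14.2% lower). These shares lie near those of all genes. The median log2 difference of the 10 genes was 0.26, 0.06 and -0.12 in the same order, against 0.08, 0.01 and -0.06 over all genes. The groups of 4 arrays did not overlap for 3 of 10 genes in each comparison, against 23.2%, 35.2% and 33.6% of all genes. Of the bur against control calls over all genes 58.4% were higher, and 42.3% under 75th percentile scaling of each array, where the median difference of all genes was -0.08 in place of 0.08.

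**Figure D1:**
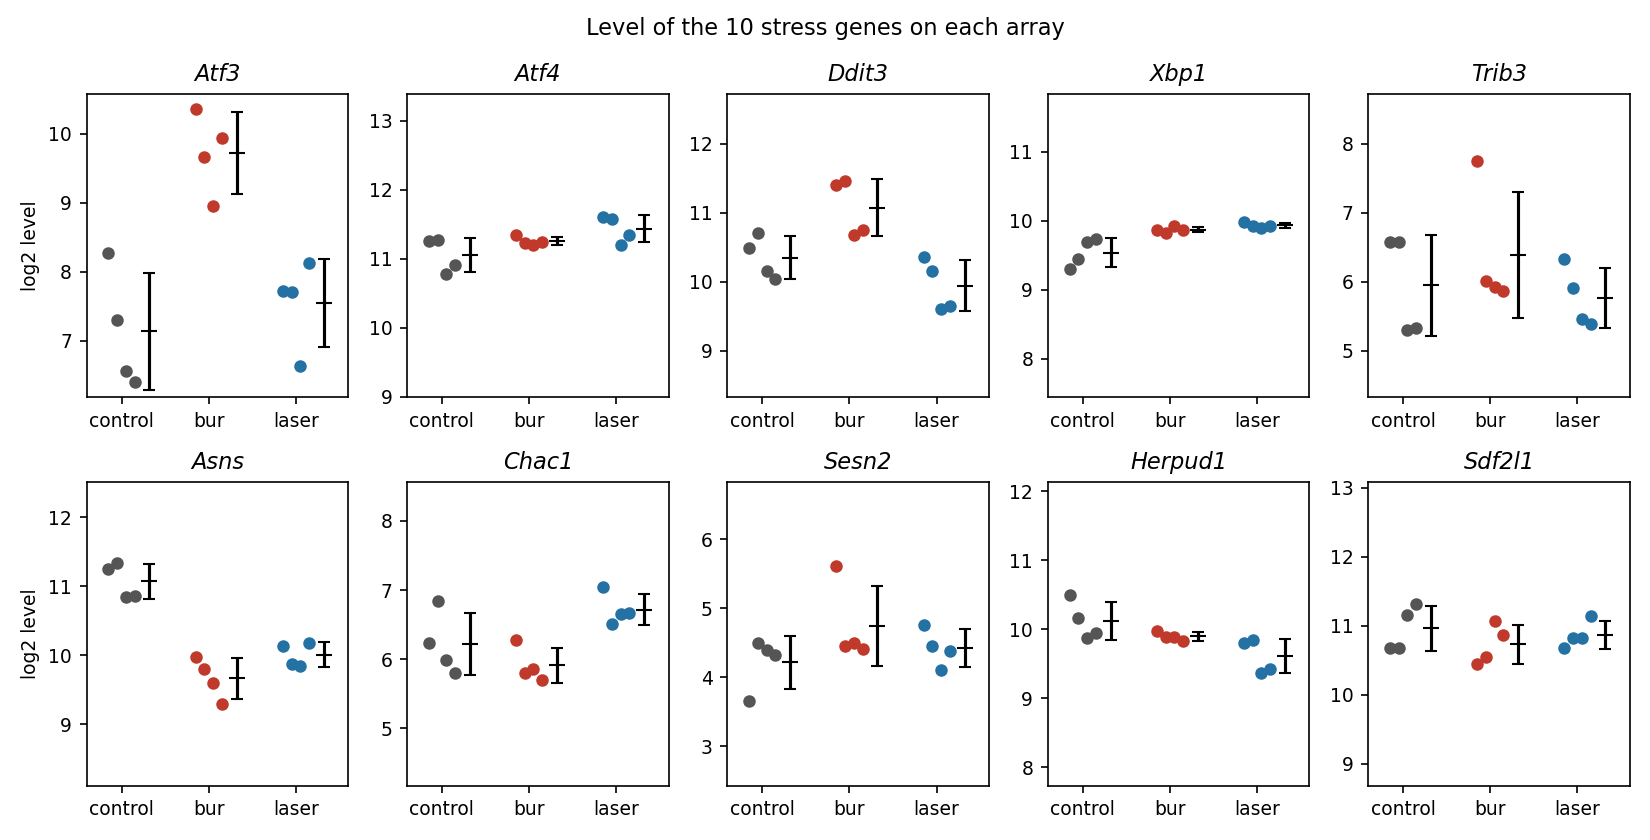
Level of each gene on each array (log2 of the quantile-normalized signal, vertical axis, 1 panel per gene, all spanning the same number of log2 units) for control, bur and laser, with arrays 1 to 4 from left to right. Bars show mean and SD (n = 4). Atf3 is high on all 4 bur arrays and Asns on all 4 control arrays.

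Atf3 encodes a transcription factor of the ATF and CREB family that is induced early by many stresses, ATF4 signalling among them. Its probe was A_43_P11616, at chr13:107191582-107191614, minus strand of the rat build rn4 per the file, which is the build of all probe positions given here; the exon or UTR under a probe was not annotated here. It read 8.27, 7.31, 6.57 and 6.41 log2 on control arrays 1 to 4, 10.36, 9.66, 8.95 and 9.94 on bur arrays and 7.72, 7.71, 6.64 and 8.13 on laser arrays. Every bur array lay above every control and laser array, while laser and control arrays overlapped. Against a control mean of 7.14 ± 0.85 (SD, n = 4), bur bone at 9.73 ± 0.59 was 6.02-fold higher, with a 95% interval of 3.02 to 12 (log2 2.59 ± 0.45 SE, limma adjusted p = 0.00244). Laser bone at 7.55 ± 0.64 was 4.53-fold lower than bur bone (interval 2.27 to 9.02, log2 -2.18 ± 0.45, adjusted p = 0.00533). Against control it gave a log2 difference of 0.41 ± 0.45 (adjusted p = 0.514), and the interval of the fold, 0.667 to 2.65, holds no change as well as a rise of that size. The Atf3 call for bur against control was made in 18 of 18 alternative settings, with log2 differences from 2.17 to 2.97, and that for laser against bur in 17 of 17.

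Atf4 encodes the factor through which the eIF2alpha kinases act, and its regulation is mainly at translation. Its probe was A_42_P620762 (chr7:118538840-118538899, plus strand). It read 11.26, 11.27, 10.78 and 10.91 log2 on control arrays, 11.34, 11.23, 11.20 and 11.25 on bur arrays and 11.61, 11.58, 11.20 and 11.35 on laser arrays. The groups overlapped in every comparison, and the bur arrays lay within the narrowest range. The log2 difference was 0.20 ± 0.15 for bur against control (adjusted p = 0.355) and 0.38 ± 0.15 for laser against control (adjusted p = 0.0672), the latter called in 6 of 18 alternative settings. For laser against bur it was 0.18 (adjusted p = 0.414), so the mRNA was within a 95% interval of 0.906 to 1.41 times the bur level.

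Ddit3 encodes CHOP, a C/EBP family factor downstream of ATF4 that is linked to cell death under lasting ER stress. Its probe was A_64_P059495 (chr7:67252505-67252564, plus strand). Its arrays read 10.49, 10.71, 10.15 and 10.04 log2 in control, 11.40, 11.45, 10.68 and 10.74 in bur and 10.36, 10.16, 9.60 and 9.65 in laser bone. The 4 bur arrays lay above the 4 laser arrays, and the control arrays overlapped with both. Laser bone was 2.19-fold lower than bur bone (interval 1.50 to 3.19, log2 -1.13 ± 0.25, adjusted p = 0.00726), a call made in 17 of 17 alternative settings. Against control, the log2 difference was 0.72 ± 0.25 in bur bone (adjusted p = 0.0578) and -0.41 ± 0.25 in laser bone (adjusted p = 0.224). The bur difference sat near the threshold and was called in 7 of 18 alternative settings. Over all 18 the limma adjusted p ran from 0.004 to 0.216. The lowest came from the fit with a replicate block, though whether replicate numbers pair the arrays is not settled here. The authors' deposited table gave the bur difference as 0.71 with an adjusted p of 0.00525. Its laser counterpart was called in 1 of 18.

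Xbp1 encodes the factor activated by IRE1, and its own promoter holds the ER stress response element. Its probe was A_64_P011894 (chr14:86156913-86156972, plus strand). Control arrays read 9.30, 9.44, 9.69 and 9.73 log2, bur arrays 9.86, 9.83, 9.92 and 9.87, and laser arrays 9.99, 9.93, 9.89 and 9.92. Both cut groups lay above all 4 control arrays and spread little, with an SD of 0.04 in each against 0.20 in control. Laser bone was 1.31-fold higher than control (interval 1.1 to 1.57, log2 0.39 ± 0.12, adjusted p = 0.0227). Bur bone gave 0.33 ± 0.12 (adjusted p = 0.0595), and the log2 difference between laser and bur was 0.06 (adjusted p = 0.748). The laser call was made in 13 of 18 settings and was lost without control 1 and control 4 (0.37, adjusted p = 0.0567). It was also lost without control 2 (adjusted p = 0.0518), laser 1 (0.063) or laser 2 (0.0538), and in a fit of only the compared groups.

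**Figure D2:**
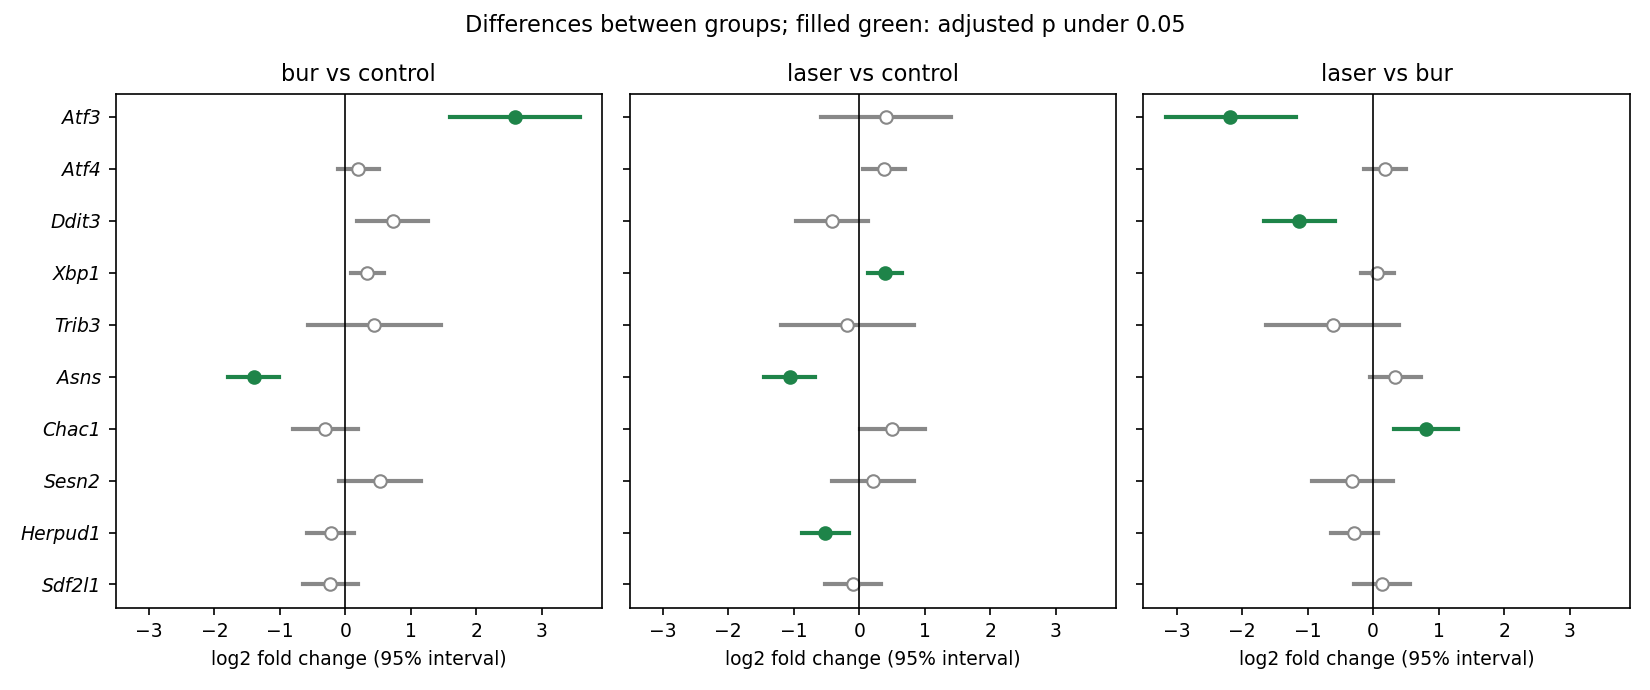
Log2 fold change of each gene (points) with its 95% interval (bars) for bur against control, laser against control and laser against bur, filled green where the limma adjusted p was under 0.05. Atf3 has the largest differences with bur, at 2.59 and -2.18, and Asns is lower than control in both cut groups, at -1.40 and -1.06.

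Asns encodes asparagine synthetase, which makes asparagine from aspartate and glutamine and is a well-known target of ATF4. Its brighter probe was A_44_P480267 (chr4:32759136-32759195, minus strand). The brighter probe read 11.25, 11.33, 10.84 and 10.86 log2 on control arrays, 9.98, 9.80, 9.60 and 9.29 on bur arrays and 10.14, 9.87, 9.84 and 10.18 on laser arrays. All 8 arrays of cut bone lay below all 4 controls, and bur and laser arrays overlapped. Bur bone was 2.64-fold lower than control (interval 2.02 to 3.47, log2 -1.40 ± 0.18, adjusted p = 0.000502) and laser bone 2.09-fold lower (interval 1.59 to 2.74, log2 -1.06 ± 0.18, adjusted p = 0.00114). Both comparisons share the 4 control arrays. The second Asns probe (A_43_P15258, chr4:32758667-32758726) read 9.61, 10.44, 10.16 and 10.02 in control, 8.88, 9.24, 8.79 and 8.53 in bur and 9.06, 8.93, 8.92 and 9.28 in laser bone. It too was lower in both, by log2 -1.20 ± 0.20 (adjusted p = 0.00239 over all kept probes) and -1.01 ± 0.20 (adjusted p = 0.0029). Both Asns calls were made in 18 of 18 alternative settings, with log2 differences from -1.51 to -1.28 and from -1.14 to -0.95. Between laser and bur the log2 difference of 0.34 was not called (adjusted p = 0.191; fold interval 0.965 to 1.66).

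Trib3 encodes a pseudokinase that ATF4 and CHOP induce and that restrains their signal. Its probe was A_64_P117901 (chr3:142664936-142664995, minus strand). Control arrays read 6.58, 6.58, 5.30 and 5.32 log2, bur arrays 7.75, 6.01, 5.92 and 5.87, and laser arrays 6.32, 5.91, 5.46 and 5.38. The groups overlapped in every comparison, and the level on bur 1 was far above the other bur arrays. The bur against control difference was 0.44 ± 0.46 (adjusted p = 0.523) and -0.01 without bur 1. Laser against control gave -0.18 ± 0.46 (adjusted p = 0.792), a value whose sign changed in 4 of 18 settings.

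Chac1 encodes an enzyme that breaks down glutathione and is induced through ATF4, ATF3 and CHOP. Its probe was A_64_P112406 (chr3:105872719-105872778, plus strand). It read 6.23, 6.84, 5.99 and 5.80 log2 on control arrays, 6.28, 5.80, 5.86 and 5.69 on bur arrays and 7.04, 6.51, 6.65 and 6.67 on laser arrays. Laser arrays lay above all bur arrays and overlapped with control 2 alone. Laser bone was 1.75-fold higher than bur bone (interval 1.25 to 2.47, log2 0.81 ± 0.23, adjusted p = 0.022). This order was the reverse of that of Atf3 and Ddit3, which were lower with laser. The call was lost without bur 2 (adjusted p = 0.0555), bur 4 (0.0593) or laser 1 (0.0683). Against control the log2 differences were 0.50 ± 0.23 for laser (adjusted p = 0.104) and -0.31 ± 0.23 for bur (adjusted p = 0.351). Without control 2 the laser difference was 0.71 and called (adjusted p = 0.0155), and the authors' deposited table gave 0.61 with an adjusted p of 0.0092.

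Sesn2 encodes sestrin 2, which senses leucine and restrains the growth kinase mTORC1. Its probe was A_44_P802511 (chr5:152655891-152655950, plus strand). It was the dimmest of these probes and was well above background on 11 of 12 arrays, control 1 being the exception. Its arrays read 3.65, 4.49, 4.39 and 4.33 log2 in control, 5.61, 4.45, 4.50 and 4.41 in bur and 4.76, 4.45, 4.10 and 4.38 in laser bone. All groups overlapped, with bur 1 far above the rest. No comparison was called, at log2 0.53 ± 0.29 for bur against control (adjusted p = 0.203), 0.21 for laser against control (adjusted p = 0.600) and -0.32 for laser against bur (adjusted p = 0.459).

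Herpud1 and Sdf2l1 encode ER proteins induced in the unfolded protein response, the former a membrane protein of ER-associated degradation and the latter a partner of the chaperone BiP. Their probes were A_44_P1047924 (chr19:11036709-11036768, minus strand) and A_64_P012902 (chr11:85880276-85880335, plus strand). Herpud1 read 10.50, 10.17, 9.88 and 9.94 log2 on control arrays, 9.98, 9.89, 9.89 and 9.83 on bur arrays and 9.80, 9.84, 9.37 and 9.43 on laser arrays. The laser arrays lay below all control arrays, the highest laser value of 9.84 just under the lowest control value of 9.88. Laser bone was 1.43-fold lower than control (interval 1.12 to 1.83, log2 -0.52 ± 0.16, adjusted p = 0.0304). The call was made in 10 of 18 settings and lost without control 1 and control 4 (-0.42, adjusted p = 0.112), control 1 (0.0676), control 2 (0.0576), laser 3 (0.0838) or laser 4 (0.0789) and with 75th percentile scaling (-0.40, adjusted p = 0.0689). Array weights and a fit of only the compared groups lost it too. Bur bone gave -0.22 ± 0.16 against control (adjusted p = 0.344), which the authors' deposited table had as -0.46 with an adjusted p of 0.0117. Laser against bur gave -0.29 (adjusted p = 0.219).

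Sdf2l1 was bright, and no comparison of it was called. It read 10.68, 10.68, 11.16 and 11.31 log2 in control, 10.45, 10.55, 11.06 and 10.87 in bur and 10.67, 10.82, 10.82 and 11.14 in laser bone. All groups overlapped, and the log2 differences were -0.23 (adjusted p = 0.427) for bur and -0.09 (adjusted p = 0.738) for laser against control and 0.13 (adjusted p = 0.667) for laser against bur. The 95% intervals of these folds ran from 0.636 to 1.15, from 0.697 to 1.26 and from 0.816 to 1.47. Xbp1, Herpud1 and Sdf2l1, which report on the ER arm, thus gave a called rise, a called fall and no call in laser bone.

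Arrays of a group differed among themselves in ways that several genes shared. Bur 1 was the highest of the 4 bur arrays for 7 of the 10 genes, by a mean of 0.37 log2 above its group. Laser 1 was the highest laser array for 6 genes and laser 3 the lowest for 7. Within groups, arrays 1 and 2 often stood apart from arrays 3 and 4. Trib3 read 6.58 on control 1 and 2 each and 5.30 and 5.32 on control 3 and 4. Atf3, Atf4, Ddit3, Asns, Chac1 and Herpud1 were also higher on both control 1 and 2 than on both control 3 and 4, and Xbp1 and Sdf2l1 lower. In both cut groups Ddit3 and Trib3 were again higher on arrays 1 and 2 than on arrays 3 and 4, as were Asns in bur bone and Atf4, Xbp1, Sesn2 and Herpud1 in laser bone, while Xbp1 and Sdf2l1 were lower in bur bone. The median processed signal of arrays 1 and 2 was below that of arrays 3 and 4 in control (20.6 and 16.5 against 34.7 and 43.2) and laser bone (55.6 and 63.7 against 81.9 and 67.2) but not in bur bone (28.3 and 20.5 against 21.7 and 18.6), and its part in these levels was not tested.

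**Figure D3:**
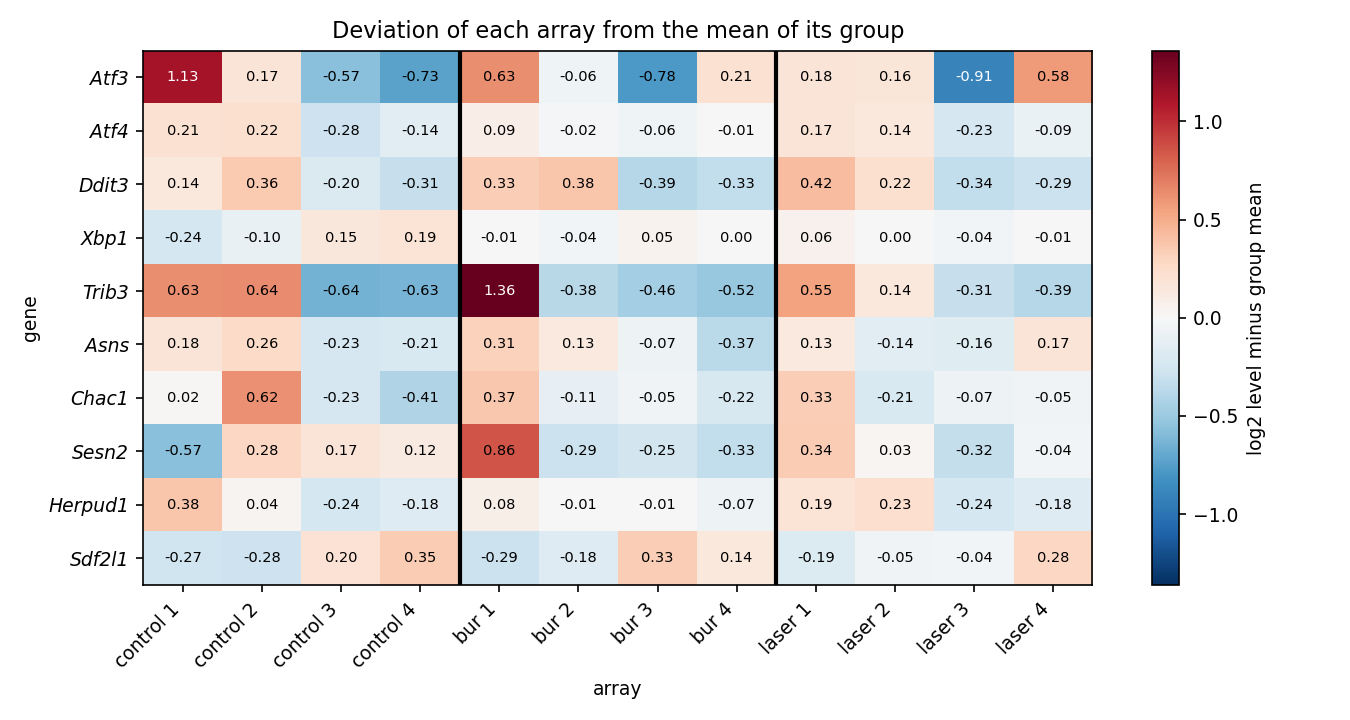
Log2 level of each gene (rows) on each array (columns) minus the mean of its group of 4, red above and blue below. Trib3 at 1.36 and Sesn2 at 0.86 on bur 1 and Atf3 at 1.13 on control 1 are the 3 largest upward deviations.

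Markers of bone and other cells moved with several of these results. Of all genes, 13.7% were called higher and 9.74% lower in bur bone than in control, and 18.3% and 16.2% in laser bone. For laser against bur the shares were 11.6% and 14.2%. Of 9 monocyte and macrophage markers, all well above background on all 12 arrays, 7 were called higher in bur than in control bone and 5 lower in laser than in bur bone, as Atf3 was. Their summed signal was 15.52 to 16.27 log2 on control arrays, 16.31 to 16.70 on bur arrays and 15.38 to 15.98 on laser arrays. Against control, 4 of them were also higher in laser bone, where Atf3 was not called. Of 7 erythroid markers, all well above background on all 12 arrays, 7 were lower in bur and 6 in laser bone than in control, as Asns was. Their summed signal was 17.32 to 17.52 log2 on control arrays, 15.73 to 16.60 on bur arrays and 15.92 to 16.44 on laser arrays. The part of these cells in the Atf3 and Asns results was not tested. Plasma and B cell markers, a secretory lineage that uses XBP1, had 2 of 10 called higher in bur and 1 higher and 1 lower in laser bone against control. These counts lie near the shares of all genes. The sums of these markers were 12.60 to 13.04 log2 on control, 13.28 to 13.45 on bur and 12.54 to 13.33 on laser arrays, so that the laser sums overlapped with control. The osteocyte sums lay above all 4 controls in both cut groups, as Xbp1 did, at 12.33 to 13.21 log2 on control, 14.15 to 14.72 on bur and 13.50 to 14.73 on laser arrays, with 2 of 5 markers called higher in each. Of 8 osteoblast markers, 2 were called higher in bur and 4 in laser bone, with sums of 16.70 to 18.16, 17.49 to 17.94 and 17.94 to 18.45. The part of these cells in the Xbp1 result was not tested. Neutrophil sums were highest on the 4 laser arrays, at 16.73 to 17.25 log2 against 15.82 to 16.31 on control and 15.24 to 15.99 on bur arrays, and 3 of 6 markers were called higher in laser than in control and bur bone. Like them, Chac1 was higher in laser than in bur bone, and Herpud1 (against control) and Atf3 and Ddit3 (against bur) were lower with laser; the part of neutrophils in these results was not tested. Without control 1 and control 4, the arrays with the highest neural marker sums, the Atf3 difference for bur against control was 2.79 (adjusted p = 0.00749) and the Asns differences were -1.42 for bur (adjusted p = 0.00605) and -1.08 for laser (adjusted p = 0.00871).

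**Figure D4:**
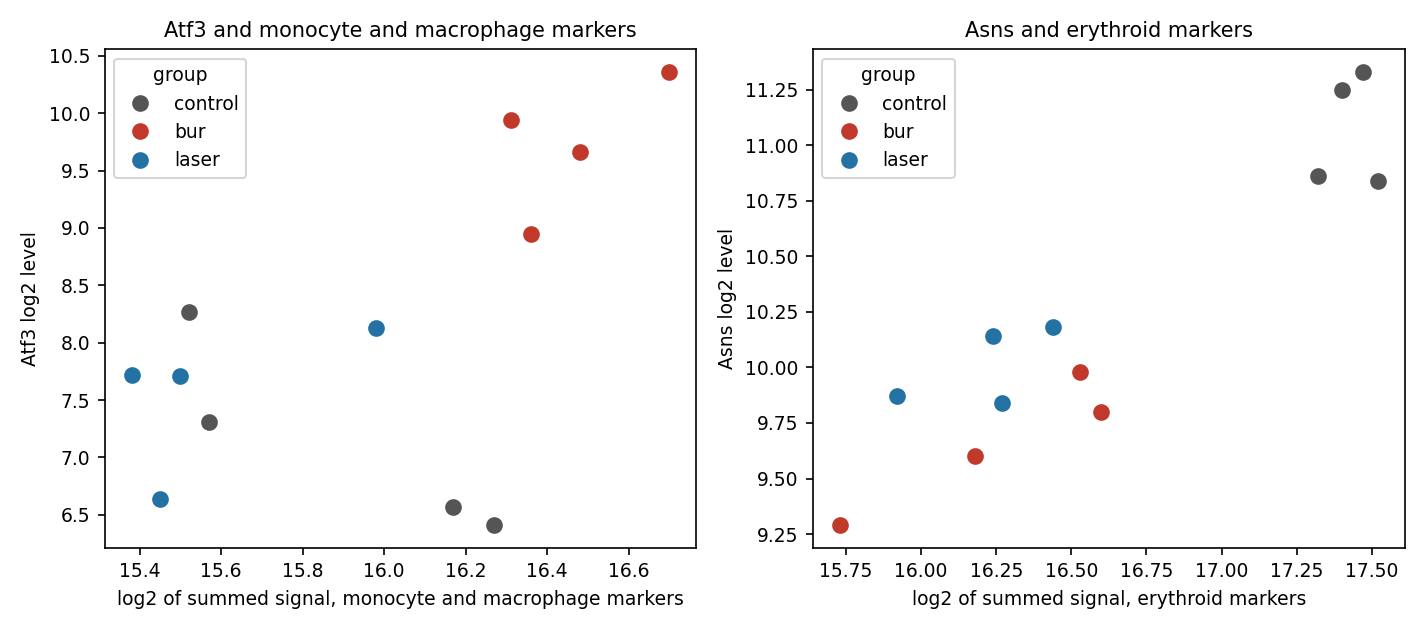
Left, Atf3 level against the log2 of the summed signal of 9 monocyte and macrophage markers; right, Asns level against that of 7 erythroid markers, 1 point per array coloured by group. Bur arrays lie at the upper right on the left, and control arrays at the upper right on the right.

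The other genes of these pathways were read as 5 lists, of which 108 genes were measured. In them 22 genes were called for bur against control (8 higher, 14 lower), 39 for laser against control (17 higher, 22 lower) and 28 for laser against bur (10 higher, 18 lower). These are 20.4%, 36.1% and 25.9% of the 108, near the 23.4%, 34.4% and 25.8% of all genes. In each list and comparison called genes lay on both sides of 0, except among the stress sensors for bur against control, where both called genes were lower. Without control 1 and control 4 the counts against control were 10 for bur (3 higher, 7 lower) and 31 for laser (9 higher, 22 lower). Calls over all 16382 genes fell as well, from 3837 to 2353 for bur and from 5637 to 4033 for laser. The counts per list without these arrays, given below, stand beside that wider loss of calls.

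**Figure D5:**
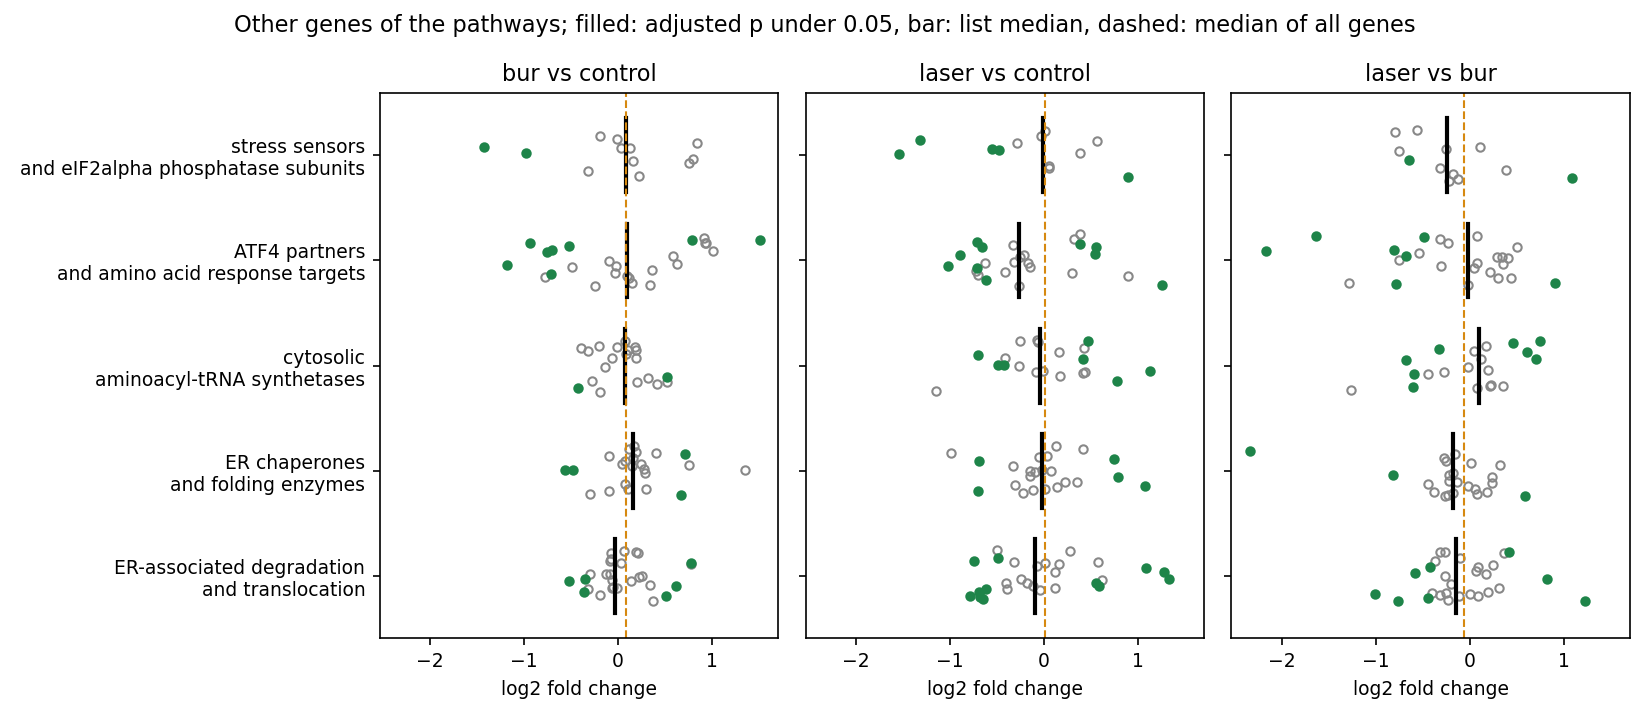
Log2 fold change of each measured gene of the 5 pathway lists (rows) in the 3 comparisons (panels), filled green at a limma adjusted p under 0.05. Black bars mark list medians, from -0.26 to 0.16, and the dashed line the median of all genes.

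Of 12 stress sensors and subunits of the eIF2alpha phosphatase, 2 fell in bur bone, 4 fell and 1 rose in laser bone against control, and 1 rose and 1 fell between laser and bur. The list medians were 0.08, -0.01 and -0.24. Eif2ak1, which encodes the heme-regulated kinase HRI, read 12.52, 12.35, 11.78 and 11.60 log2 on control arrays, 10.97, 11.17, 10.38 and 10.04 on bur arrays and 11, 10.69, 10.63 and 10.66 on laser arrays. All cut arrays lay below all controls, as for Asns, and its log2 change was -1.43 ± 0.27 in bur (adjusted p = 0.00379) and -1.32 ± 0.27 in laser bone (adjusted p = 0.00372), beside the lower erythroid markers given above. Ppp1r15a, which encodes GADD34, the stress-induced subunit that brings the phosphatase to eIF2alpha, fell by 0.98 in bur (adjusted p = 0.00842) and by 1.54 in laser bone (adjusted p = 0.000415). Ppp1r15b, the constitutive counterpart, was lower in laser bone (-0.55, adjusted p = 0.0108). Eif2ak4, which encodes the amino acid sensor GCN2, rose in laser bone against control (0.90 ± 0.13, adjusted p = 0.000372) and against bur (1.09 ± 0.13, adjusted p = 0.000135). Its laser arrays read 7.31 to 7.69 and its other arrays 6.18 to 6.62, so that these did not overlap. Atf6, the ER membrane sensor, was lower in laser than in bur bone by its brightest probe (-0.64, adjusted p = 0.0163), but its other probes gave -0.03 and 0.25, neither called. Against control the Atf6 probes disagreed in laser bone, at -0.48 (adjusted p = 0.0433) for the brightest and 0.64 (adjusted p = 0.016) and 0.15 (adjusted p = 0.574) for the others, so no direction is given for Atf6, though it is 1 of the 4 counted as lower.

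Of 25 measured ATF4 partners and amino acid response targets, 2 rose and 6 fell in bur bone, 4 rose and 6 fell in laser bone against control, and 1 rose and 6 fell between laser and bur. Fgf21, Cth and Cbs were not kept, and the list medians were 0.10, -0.26 and -0.02. Cebpb, which encodes a C/EBP partner of ATF4, read 10.34, 10.16, 10.51 and 9.87 log2 on control arrays, 12.08, 11.82, 11.31 and 11.70 on bur arrays and 9.56, 9.73, 9.22 and 9.72 on laser arrays. No groups overlapped, and like Atf3 it was highest in bur bone, by 1.51 ± 0.20 over control (adjusted p = 0.000578), and lower in laser than in bur bone (-2.17 ± 0.20, adjusted p = 2.52e-05). For laser against control its probes differed, at -0.66 (adjusted p = 0.0235) and -0.01 (adjusted p = 0.984). Eif4ebp1, which encodes a repressor of cap-dependent translation, rose in bur bone (0.79 ± 0.12, adjusted p = 0.00106) and was lower in laser than in bur bone (-0.49, adjusted p = 0.0109). The glycine transporter Slc6a9 fell by 1.18 in bur (adjusted p = 0.00421) and by 0.89 in laser bone (adjusted p = 0.0124), with the second probe at -1.51 and -1.65. That second probe was dim, and well above background on only 1 of 4 bur arrays. Mthfd2, of mitochondrial folate metabolism, fell in bur bone by 0.94 (adjusted p = 0.00512; other probe -0.49, adjusted p = 0.0379) and in laser bone by 0.71 (adjusted p = 0.014). The serine synthesis gene Psat1 was lower than control in bur (-0.76, adjusted p = 0.01) and laser bone (-0.71, adjusted p = 0.01), as was the arginine transporter Slc7a1 (-0.70, adjusted p = 0.00541, and -0.61, adjusted p = 0.00722). The neutral amino acid transporter Slc1a4 was lower in laser bone than in control (-1.02, adjusted p = 0.00461) and bur bone (-0.78, adjusted p = 0.0228), with -0.24 for bur against control (adjusted p = 0.455). Psph, the last enzyme of serine synthesis, was lower in bur (-0.52, adjusted p = 0.0149) and higher in laser bone than in control (0.39, adjusted p = 0.039). Between laser and bur, Psph was higher with laser (0.91, adjusted p = 0.000611), and Slc3a2, the shared chain of amino acid exchangers, lower (-0.68, adjusted p = 0.00416). Without control 1 and control 4 the laser against control count was 6, all of them lower, in place of 10.

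Of 20 cytosolic aminoacyl-tRNA synthetases, which charge tRNAs and many of which ATF4 can induce, 1 rose and 1 fell in bur bone, 4 rose and 3 fell in laser bone against control, and 4 rose and 4 fell between laser and bur. The list medians were 0.07, -0.04 and 0.10. In bur bone Rars1 was higher (0.52, adjusted p = 0.0137) and Farsa lower (-0.43, adjusted p = 0.0278, called in 11 of 18 alternative settings). In laser bone Cars1 (1.13, adjusted p = 0.00184) and Kars1 (0.78, adjusted p = 0.00309) were higher than control and Farsa (-0.70, adjusted p = 0.00153) and Tars1 (-0.49, adjusted p = 0.00861) lower. Against bur, laser bone had higher Sars1 (0.71, adjusted p = 0.0107) and lower Tars1 (-0.68, adjusted p = 0.00194), Rars1 (-0.60, adjusted p = 0.00636) and Farsb (-0.59, adjusted p = 0.00577). Without control 1 and control 4 the counts against control were 1 for bur and 4 for laser. The 1 gene called for bur was lower, so the bur call of Rars1 was lost.

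Of 23 ER chaperones and folding enzymes, 2 rose and 2 fell in bur bone, 3 rose and 2 fell in laser bone against control, and 1 rose and 2 fell between laser and bur. The list medians were 0.16, -0.02 and -0.18. P4hb, which encodes protein disulfide isomerase, a subunit of the enzyme that hydroxylates collagen, was higher in bur than in control bone (0.67, adjusted p = 0.0151) and lower in laser than in bur bone (-0.82, adjusted p = 0.00499). Calr, the calcium-binding chaperone calreticulin, was lower in bur (-0.56, adjusted p = 0.0248) and in laser bone (-0.69, adjusted p = 0.00647). The disulfide isomerase family member Txndc5 was higher in bur (0.71, adjusted p = 0.00796) and in laser bone (0.79, adjusted p = 0.00298), though its other probe gave 0.57 (adjusted p = 0.0782) and -0.02 (adjusted p = 0.961). Fkbp2, a prolyl isomerase of the ER, was higher in laser bone than in control (0.75, adjusted p = 0.00066) and bur bone (0.59, adjusted p = 0.00361). Ero1b, an oxidase that recharges disulfide isomerase, was lower in bur (-0.48, adjusted p = 0.0437) and laser bone (-0.70, adjusted p = 0.00556) by its brightest probe. A dim Ero1b probe was well above background on 4 of 4 laser arrays but on 1 of 4 control and 0 of 4 bur arrays. It gave 0.88 in laser bone against control (adjusted p = 0.129). Its 2.05 for laser against bur (adjusted p = 0.00413) is a difference from bur readings near the floor. The mean of both probes gave 0.09 in laser bone against control. The paralog Ero1a was lower in laser than in bur bone (-2.34 ± 0.67, adjusted p = 0.0251; other probe -2.12, adjusted p = 0.0524), a call lost without bur 1, bur 2, laser 3 or laser 4, at log2 values from -2.31 to -1.88. Without control 1 and control 4, no gene of this list was called for bur against control, where 2353 of all 16382 genes were. The bur calls of Calr and Ero1b were made in 11 and 6 of 18 alternative settings.

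Of 28 genes of ER-associated degradation and of translocation into the ER, 3 rose and 3 fell in bur bone, 5 rose and 7 fell in laser bone against control, and 3 rose and 5 fell between laser and bur. The list medians were -0.03, -0.09 and -0.15. Sec61a1, the channel through which new proteins enter the ER, read 11.04, 11.10, 10.82 and 10.67 log2 on control arrays, 11.44, 11.31, 11.41 and 11.50 on bur arrays and 12.42, 12.26, 12.19 and 12.06 on laser arrays. No groups overlapped, and it rose by 0.51 ± 0.13 in bur (adjusted p = 0.0158) and 1.33 ± 0.13 in laser bone (adjusted p = 3.57e-05), with 0.82 ± 0.13 between laser and bur (adjusted p = 0.00106). Ssr3, a subunit of the translocon-associated complex, was higher in laser bone than in bur (1.23 ± 0.24, adjusted p = 0.00345) and control bone (1.28, adjusted p = 0.00192). Selenos, a degradation factor of the ER membrane, rose in bur (0.78, adjusted p = 0.00547) and laser bone (1.09, adjusted p = 0.000501). Degradation genes with lower levels were Syvn1, a ubiquitin ligase that partners Herpud1, in bur (-0.52, adjusted p = 0.0131) and laser bone (-0.78, adjusted p = 0.000929), and the membrane factor Derl1 in laser bone against control (-0.65, adjusted p = 0.000889) and bur (-0.58, adjusted p = 0.00237). Its relative Derl2 was higher in bur than in control bone (0.62, adjusted p = 0.0106; other probe 0.33, not called) and lower in laser than in bur bone (-1.01, adjusted p = 0.000595; other probe -0.56, adjusted p = 0.0231). Without control 1 and control 4, 1 gene of this list was called for bur against control and 13 for laser. The 1 gene was Selenos, so the bur calls of Sec61a1, Syvn1 and Derl2 were lost. Over all genes, 2353 of 16382 were called for bur in that setting, in place of 3837.

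For each of the 10 genes, those whose log2 level followed it most closely over the 12 arrays were named by Pearson correlation, as a description over arrays that share groups and slides. Atf3 was followed by Fcgr2a (0.987) and its near copy Fcgr2al1 (0.986), which probes may not tell apart, and Asns by Gins1 (0.989) and Hagh (0.985). Xbp1 was followed by Unc45a (0.986) and Gask1b (0.975), Ddit3 by Rpp14 and Egln1 (0.957 each), and Atf4 by Tmem263 (0.966) and Ostc (0.963). Trib3 was followed by Ankrd37 (0.951) and Isg20 (0.929), Chac1 by Acyp1 (0.954) and Mapk4 (0.945), the latter well above background on 4 arrays, and Sesn2 by Acp2 (0.928) and Rbm7 (0.919). Herpud1 was followed by Mphosph8 (0.944) and Ireb2 (0.932) and Sdf2l1 by Etfb (0.955) and Xpo5 (0.945). None of the 10 genes shared a closest pair with another.

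The authors' deposited tables, whose steps between scanning and normalization are not given in the sources used here, called 4, 5 and 3 of the 10 genes in the same order of comparisons. Atf3 stood there at 2.46 for bur against control (adjusted p = 0.000148) and at -2.02 for laser against bur (adjusted p = 0.000173). For Asns the tables gave -1.42 (adjusted p = 0.000148) in bur and -1.04 (adjusted p = 0.000315) in laser bone. They also called Atf4 for laser against control (0.38, adjusted p = 0.0216), and Xbp1 in that comparison at 0.43 (adjusted p = 0.0465). No gene of the 10 that was called here was left uncalled there.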

How the data were processed

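The deposited scanner files give 1 intensity per spot, and the submitters' processing notes name Agilent Feature Extraction 11.0.1.1. Within each array this software subtracted background and detrended the processed signal, per the file headers. Per the labels, 200 ng of total RNA was labelled with Cy3. A deposited expression table gives the authors' log2 levels, quantile normalized per its title, and their deposited comparison tables hold log2 fold changes with p-values and adjusted p-values.

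Here, log2 of that processed signal, without control and outlier spots, was quantile normalized between arrays; no spot was saturated, and spots of a probe were averaged. Probes well above background on at least 4 of 12 arrays were kept, 27196 of 45598. Names came from RefSeq GRCr8 through the accession (21184 probes) or from the file (14713), and 9701 probes had none. The brightest kept probe stood for a gene, which gave 16382 genes.

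All 12 arrays entered 1 limma fit (limma 3.58.1, R 4.3.3), adjusted by Benjamini-Hochberg within a comparison; the fit was tested on simulated data. The number of arrays limits the precision. Described genes, besides the 10, are up to 4 called genes with the smallest p per list and comparison and the 2 closest by correlation. The 10 genes, the lists and the tests were chosen with earlier results of these data known. Alternatives were other scaling, background correction, filters, probe summary, the authors' values, only the groups compared, array weights, a replicate block and leaving out arrays.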

Additional observations from a re-analysis of the deposited data

Results flagged for a closer look

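Of 30 groups of 4 arrays tested, 10 genes in 3 groups, 2 had an array far from the other 3, and chance gives about 1 in 20. Trib3 read 7.75 log2 on bur 1, where the nearest bur array read 6.01 and the lowest 5.87, so that the gap was 0.924 of the range, above Dixon's critical value at the 95% level for 4 samples. Sesn2 read 5.61 log2 on bur 1, where the nearest bur array read 4.50 and the lowest 4.41, a gap of 0.93 of the range. Both lie on the same array, which was the highest bur array for 7 of the 10 genes. Without bur 1 the bur against control difference was -0.01 for Trib3 and 0.24 for Sesn2, and neither gene was called with or without it.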

How the results depend on the processing

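The number of the 10 genes called for bur against control was 2, and 4 with 75th percentile scaling, with normexp, with probes well above background on all 12 arrays and with the authors' values. For laser against control it was 3, and 5 with normexp or the replicate block, and 1 with only the compared groups or without control 1 and control 4. List genes called for bur against control were 22, and 39 with normexp, 36 with the authors' values, 14 with only the compared groups and 10 without control 1 and control 4. All genes called for bur against control were 3837, and 2476 and 2353 in the last settings. Leaving out 1 array at a time gave 2 to 3 of the 10 genes in each comparison, 18 to 26, 30 to 40 and 20 to 27 list genes, and 2756 to 4110, 4202 to 5469 and 3005 to 3985 genes in all. Signs turned for Trib3 in bur (-0.01 without bur 1, up to 0.65 without another array) and in laser against control (0.00 with normexp, 0.18 with array weights, -0.39 to 0.03 leaving out 1 array), for Sdf2l1 in laser against control (0.01 with 75th percentile scaling, -0.19 to 0.02 leaving out 1 array), for Sesn2 (-0.01 without control 1 and control 4) and for Ero1b (0.09 with the mean of its probes); the cause was not tested, and none of these values was called. Of 527 differences of the 10 genes under alternatives, 479 kept direction and side of the threshold. Whether the replicate numbers pair the arrays is not settled here, and the main fit did not use them. Correlations of same-numbered deviations ran from -0.105 to 0.35 with some at or under 0.1, and 8 of 12 arrays correlated best with their own number. With the replicate block Ddit3 was called in bur (0.72, adjusted p = 0.004) and in laser against control (-0.41, adjusted p = 0.0248), and Atf4 in laser against control (0.38, adjusted p = 0.0343).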
